A study of Mus musculus with 6 samples.

Results

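The regions described here are stretches of DNA of intermediate methylation with no unmethylated stretch measured directly beside them. They were measured in splenic naive B cells of Tet2 knockout (KO) and wild-type (WT) mice. The genome was divided into fixed tiles of 1 kb, and a tile entered with at least 3 CpG cytosines measured in all 6 libraries. A tile was a member when it held 3 to 29 such cytosines and its methylation averaged over the 6 libraries was 30% to under 70%. In addition, no directly adjacent measured tile could lie below 10%. This rule chose 8036 tiles of 108943, of which 5913 had no measured neighbour. The members were thus chosen by their level over all 6 libraries, and that level is given as a description. The difference between genotypes was not part of the rule.

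Methylation was measured by enhanced reduced representation bisulfite sequencing (ERRBS), which reads CpG cytosines in restriction fragments of a chosen size. The tested samples were 3 libraries labelled as Tet2 knockout, set against 3 libraries labelled as wild type, all of strain C57BL/6 and from spleen. The labels state neither the Tet2 allele, a Cre driver or the age of the mice, nor that libraries came from different mice. The p-values therefore speak of differences between libraries, which may be technical in part. The series' design text speaks of germinal centre cells where the labels of all samples say naive B cells.

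TET2 oxidises 5-methylcytosine to 5-hydroxymethylcytosine and further forms, a step towards removing the methyl group. Bisulfite sequencing reads 5-methylcytosine and 5-hydroxymethylcytosine alike as C. In mammalian genomes most CpGs are either nearly unmethylated, as in CpG islands at gene starts, or nearly fully methylated. Intermediate levels are known from enhancers, from imprinted regions where the parental alleles differ, and from mixtures of cells. In these bulk libraries, a shift in the mix of cells and a shift within cells cannot be told apart.

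Each library held between 1551481 and 1626375 cytosines at a median coverage of 92 to 110 reads, and 1457048 cytosines were shared by all 6. Inside Tet2 on chromosome 3, 6 cytosines between 133486189 and 133486297 fell under the deposited minimum of 10 reads in all 3 KO libraries, against 28 to 71 reads in each WT library. No cytosine of the gene showed the opposite pattern, and 111 were covered in all 6 libraries. Start tiles of 8 B cell identity genes (9 tiles) had a median level of 0.364%, with 8 of the 9 tiles below 10%. Of 7 start tiles of T cell genes, 4 were below 10%, and those of Cd5 and Zap70 stood at 92.4% and 88.0%. All 3 start tiles of myeloid genes were below 10% as well, with a median of 3.26%, so low start tiles do not set B cell genes apart. In the member tiles, the median tile had 252 reads in its shallowest library, against 332 over all tiles.

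A member tile often joins CpGs of unlike level, and gene-start windows from RefSeq show this letter by letter. RefSeq holds a start in 342 member tiles (4.26%), against 12417 (11.4%) of all tiles. The 5 windows printed here, chosen after their values were seen, show tiles in which the start and the rest of the tile have like or unlike levels. Each runs from 250 bases before to 50 bases after the start, 5′ to 3′ on the gene's strand, in RefSeq's build GRCm38.p6. Capitals mark CpGs measured in all 6 libraries on at least 1 strand. Nnat (neuronatin, imprinted) is chr2:157559828-157560127 on the plus strand, and Hoxd4 (a homeobox factor) is chr2:74721728-74722027 on the plus strand. Muc20 (a mucin) is chr16:32797386-32797685, Kcnip2 (a potassium channel partner) is chr19:45816014-45816313, and Prrt3 (a proline-rich membrane protein) is chr6:113501769-113502068, all on the minus strand.
Nnat: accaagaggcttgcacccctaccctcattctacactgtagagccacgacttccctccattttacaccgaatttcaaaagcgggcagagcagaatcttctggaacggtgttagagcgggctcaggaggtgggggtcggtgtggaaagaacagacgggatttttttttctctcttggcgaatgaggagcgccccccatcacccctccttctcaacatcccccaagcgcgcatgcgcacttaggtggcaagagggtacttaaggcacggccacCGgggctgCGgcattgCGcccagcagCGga
Hoxd4: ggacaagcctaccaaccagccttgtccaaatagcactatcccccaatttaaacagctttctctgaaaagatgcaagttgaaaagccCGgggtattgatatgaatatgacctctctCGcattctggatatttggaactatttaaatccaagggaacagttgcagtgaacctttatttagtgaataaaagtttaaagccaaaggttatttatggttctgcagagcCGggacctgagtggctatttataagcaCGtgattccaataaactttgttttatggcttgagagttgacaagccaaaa
Muc20: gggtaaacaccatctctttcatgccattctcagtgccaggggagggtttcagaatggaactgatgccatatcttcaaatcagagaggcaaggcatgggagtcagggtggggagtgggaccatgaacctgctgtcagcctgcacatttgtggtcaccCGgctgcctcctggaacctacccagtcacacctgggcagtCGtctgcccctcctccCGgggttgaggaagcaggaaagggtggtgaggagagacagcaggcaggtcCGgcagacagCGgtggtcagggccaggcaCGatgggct
Kcnip2: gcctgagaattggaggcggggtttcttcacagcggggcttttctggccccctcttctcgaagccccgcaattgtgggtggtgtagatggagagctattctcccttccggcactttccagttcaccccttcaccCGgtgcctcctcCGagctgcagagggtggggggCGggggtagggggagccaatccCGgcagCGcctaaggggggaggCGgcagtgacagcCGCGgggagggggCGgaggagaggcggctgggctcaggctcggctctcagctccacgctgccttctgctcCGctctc
Prrt3: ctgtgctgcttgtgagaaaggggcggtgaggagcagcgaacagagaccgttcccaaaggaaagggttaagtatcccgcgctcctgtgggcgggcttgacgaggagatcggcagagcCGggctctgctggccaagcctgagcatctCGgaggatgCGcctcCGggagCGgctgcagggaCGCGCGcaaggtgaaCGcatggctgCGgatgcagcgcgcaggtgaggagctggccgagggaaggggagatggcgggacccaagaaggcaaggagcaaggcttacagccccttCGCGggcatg

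At Nnat the 4 measured cytosines crowd the 3′ end of the window and stood at 24.6%, 25.1% and 18.4% in KO, against 39.0%, 37.3% and 42.5% in WT. All KO libraries lay below all WT libraries, by -16.9 points. The other 21 cytosines of the tile averaged 31.4% in KO and 36.6% in WT. At Hoxd4 the 5 measured cytosines of the window stood at 22.3% ± 1.89 in KO and 22.1% ± 0.842 in WT (SD, n = 3 each), while the 3 cytosines of the tile outside it averaged 70.4% in KO and 77.1% in WT. Kcnip2 shows the sharpest step within a tile among the 5, since its 13 measured cytosines averaged 2.10% ± 0.540 in KO and 1.78% ± 0.640 in WT, and the 6 outside the window 71.2% in KO and 71.8% in WT. At Muc20 the window stood at 64.9% ± 5.19 in KO and 54.5% ± 4.45 in WT, with all KO libraries higher. At Prrt3 it stood at 35.1% ± 4.02 in KO and 43.2% ± 3.54 in WT, with all KO libraries lower. The exact two-sided permutation p over libraries was 0.1 for Nnat, Muc20 and Prrt3, the smallest that 3 against 3 libraries allow, 0.9 for Hoxd4 and 0.5 for Kcnip2. Over the 6 windows computed, the other being Snrpn at 31.9% ± 3.26 in KO and 31.4% ± 4.31 in WT, the adjusted p of these permutation tests was at least 0.2, and none of the tiles was called. The sequence CCGG, the site of the enzyme MspI used in reduced representation libraries, occurs 1 time in the Nnat window, 2 times in Hoxd4 and Prrt3 and 3 times in Muc20 and Kcnip2. It reads the same on both strands, and 52.8% of all 32815 windows of this length hold it.

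Taken as a set, the member tiles were more methylated in KO than in WT libraries. Mean tile methylation was 55.0%, 54.8% and 54.1% in KO 1 to KO 3, against 51.0%, 52.8% and 53.0% in WT 1 to WT 3. The genotypes did not overlap, and WT 1 stood apart as the lowest library. The means were 54.6% ± 0.473 in KO and 52.2% ± 1.11 in WT (SD, n = 3 each), a difference of 2.41 percentage points with an exact two-sided permutation p of 0.1, the smallest this design allows. Without WT 1 the difference was 1.77 points. The median tile level gave a difference of 2.51 points.

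The difference was compared with that of other tiles in the same libraries. The 927 tiles that met the same level and cytosine limits but lay beside an unmethylated tile averaged 50.1% ± 0.489 in KO and 48.4% ± 0.969 in WT, 1.68 points apart. All 100907 other tiles averaged 65.2% ± 0.174 in KO and 64.7% ± 0.143 in WT, 0.5004 points apart. The member difference exceeded that of the tiles beside unmethylated DNA by 0.727 points and that of all other tiles by 1.91 points. In both comparisons every KO library lay above every WT library, with an exact permutation p of 0.1. Without WT 1 these values were 0.633 and 1.35 points.

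**Figure D1:**
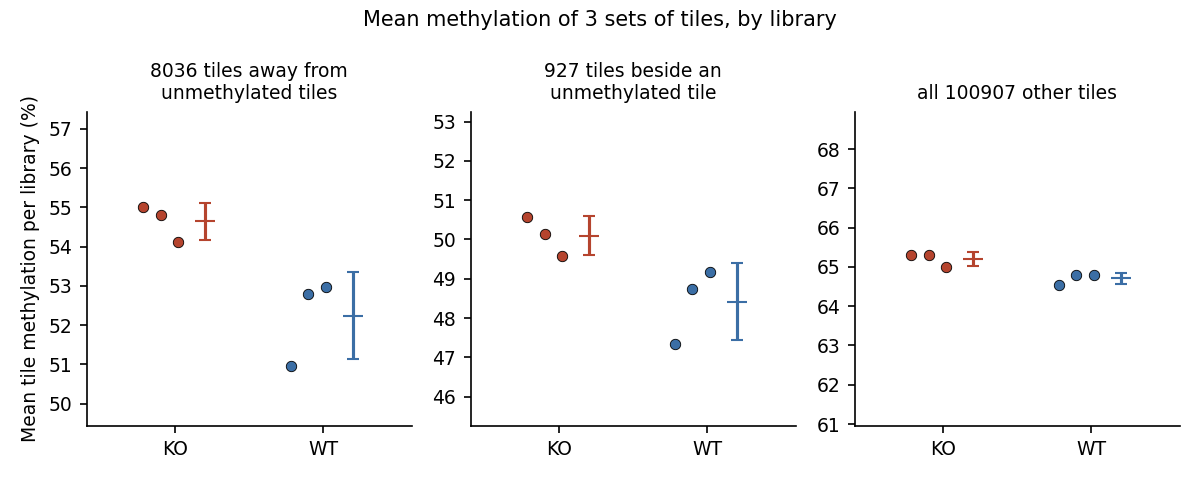
Mean tile methylation (%) per library for the 8036 member tiles, the 927 intermediate tiles beside an unmethylated tile and all 100907 other tiles; each panel spans the same number of points on its own range. Points are libraries (KO in red, left of WT in blue) with mean ± SD beside them, and the members show the widest step, with KO at 54.6% and WT at 52.2% and WT 1 lowest.

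Single tiles varied far more than this average. The difference of a tile, KO mean minus WT mean, had a median of 1.56 points over the members, with a 5th percentile of -6.15, a 95th percentile of 13.2 and extremes of -25.8 and 39.5 points. Over all tiles the median was 0.171 points. The 53183 tiles at 90% and above had a median of 0.305 points and percentiles of -3.12 and 3.85. The median SD between libraries of 1 genotype was 4.75 points in the members and 1.996 points over all tiles. It was 4.27 points among KO and 4.15 points among WT libraries of the members. A mean difference above 0 was seen in 5199 member tiles (64.7%), where the share over all 108802 tested tiles was 59.6%. It reached 10 points upwards in 789 members (9.82%, background 1.39%) and downwards in 102 (1.27%, background 0.199%). Nearly unmethylated or fully methylated tiles, much of the background, have little room for such differences.

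**Figure D2:**
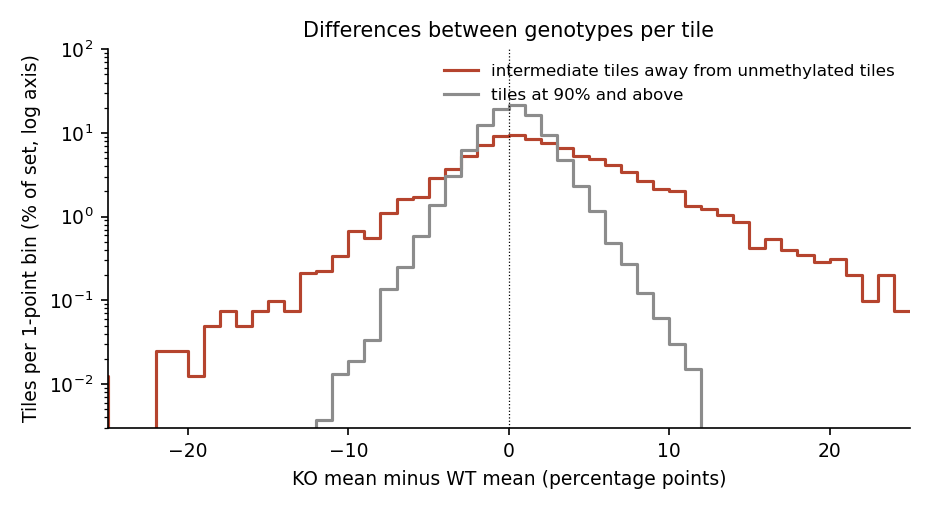
Share of tiles (%, log axis) in bins of 1 percentage point of KO mean minus WT mean, for the 8036 member tiles (red) and the 53183 tiles at 90% and above (grey), drawn from -25 to 25 points. The member curve is wider on both sides and reaches further to the right, with percentiles (5th and 95th) of -6.15 and 13.2 points.

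Each tile was then tested with a quasi-binomial model on its read counts, fitted and adjusted by the Benjamini-Hochberg method over all 108802 tested tiles, and all 8036 members entered the test. A tile was called when its adjusted p was under 0.05 and the pooled reads of the genotypes differed by 10 points or more, and the differences given for named tiles from here on are these pooled ones. Higher methylation in KO was called in 65 member tiles (0.809%), where the background over all tested tiles was 0.112%, or 122 tiles. Lower methylation was called in 0 member tiles, with a background of 0%. The members thus held 53.3% of all called tiles and 7.39% of the tested ones. Nearly unmethylated or fully methylated tiles have little room for the 10 points a call needs, so part of this excess may follow from the level rule. How much was not tested. Of the 927 tiles beside unmethylated DNA, 4 (0.431%) were called higher.

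At an unadjusted p under 0.05, 1019 members were higher (12.7%, background 5.74%) and 141 lower (1.75%, background 1.46%). The 3 KO libraries were all above the 3 WT libraries in 1083 members (13.5%, background 8.35%) and all below them in 237 (2.95%, background 3.36%). The calls rest on the choice of model and on single libraries. Tests of the same counts with edgeR's quasi-likelihood test and with limma called 0 members, with smallest adjusted p of 0.884 and 0.704. At an unadjusted p under 0.05, edgeR had 370 members higher and 14 lower, and limma 387 and 26, out of 8036. A threshold of 0.05 by itself passes a share of about 0.05 of tests where nothing differs, both directions together. These counts are thus no support by themselves, and the share over all tiles was not computed for these tests. All 65 called tiles had an unadjusted p under 0.05 in both tests. They had been picked as extreme in the same counts, so this adds no support. Without WT 1 the quasi-binomial model called 27 members, of which 26 were among the 65.

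In the 65 called tiles the pooled difference ran from 11.001 to 38.3 points with a median of 20.9. The median level was 67.1% in KO and 44.1% in WT. They lay on 17 chromosomes and held a median of 7 cytosines. In all 65 the genotypes did not overlap. As a description of tiles called for higher pooled reads, 468 (95.3%) of their 491 cytosines were higher in KO, 380 (77.4%) by at least 10 points.

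The largest called gain in pooled reads lay inside Wipf1, which encodes a WASP-binding regulator of actin assembly (chromosome 2, 73454001 to 73455000, GRCm38). Its libraries stood at 77.8%, 70.5% and 69.4% in KO, against 23.1%, 37.5% and 38.6% in WT. The step between the lowest KO and the highest WT library was wider than the range within either genotype. The pooled difference was 38.3 points (adjusted p = 0.00575). Its 9 cytosines lie within 61 bp, and each was higher in KO, by 27.5 to 52.8 points.

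Creb3l2, a transcription factor that is released from the endoplasmic reticulum in secretory cells, had the next largest in pooled reads (chromosome 6, 37428001 to 37429000). Its tile stood at 72.1%, 68.0% and 64.7% in KO, against 40.1%, 27.7% and 32.3% in WT, a difference of 35.5 points (adjusted p = 0.00624). All 4 cytosines were higher in KO, by 26.7 to 43.4 points. Inside Cbfa2t3, a corepressor of blood cell transcription, 8 cytosines (chromosome 8, 122646001 to 122647000) stood at 89.0%, 85.0% and 80.2% in KO, against 44.2%, 57.6% and 60.1% in WT (31.1 points, adjusted p = 0.00821). Here the step was uneven, since single cytosines differed by 5.60 to 44.5 points, and the least changed 1 stood at 99.1% in KO and 93.5% in WT.

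Trib1, a pseudokinase that promotes breakdown of C/EBP factors, held the called tile with the lowest levels of the 10 largest gains (chromosome 15, 59652001 to 59653000). It stood at 43.3%, 49.2% and 46.3% in KO, against 12.2%, 21.4% and 18.1% in WT (28.9 points, adjusted p = 0.00821). Prtg, an immunoglobulin superfamily receptor of the embryo, was nearly as low in WT (chromosome 9, 72902001 to 72903000), with 40.2%, 51.9% and 55.7% in KO, against 12.6%, 21.4% and 18.9% in WT (31.0 points, adjusted p = 0.0181). Both tiles were intermediate in KO and low in WT, with no overlap between genotypes. Hivep2, a zinc finger factor that binds NF-kB-like motifs, had 78.7%, 69.9% and 78.2% in KO, against 35.8%, 50.9% and 44.6% in WT (chromosome 10, 14044001 to 14045000, 29.2 points, adjusted p = 0.0119). Snap29, a SNARE protein of membrane fusion, had 74.3%, 66.1% and 63.8% in KO, against 33.3%, 43.3% and 40.3% in WT (chromosome 16, 17410001 to 17411000, 28.8 points, adjusted p = 0.00821).

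The other 3 of the 10 largest gains lay outside protein-coding genes. A tile 8.85 kb from Il10, which encodes an anti-inflammatory cytokine, stood at 76.8%, 71.8% and 93.7% in KO, against 42.9%, 49.2% and 41.5% in WT (34.1 points, adjusted p = 0.0159, chromosome 1, 131010001 to 131011000). KO 3 was the highest of its libraries by a wide margin. A tile 57.3 kb from Cryaa, a lens crystallin gene, stood at 83.4%, 70.5% and 72.4% in KO, against 24.6%, 44.8% and 41.9% in WT (34.7 points, adjusted p = 0.0161, chromosome 17, 31739001 to 31740000). A tile 26.0 kb from Ifnar1, a subunit of the type I interferon receptor, stood at 61.9%, 64.4% and 54.8% in KO, against 12.9%, 40.99% and 25.7% in WT (chromosome 16, 91458001 to 91459000, 28.2 points, adjusted p = 0.0347). The WT libraries there spread more widely than in the other 9 tiles. Of its 12 cytosines 11 were higher in KO, the largest by 56.0 points, and the remaining 1 stood at 0% in KO and 1.36% in WT.

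**Figure D3:**
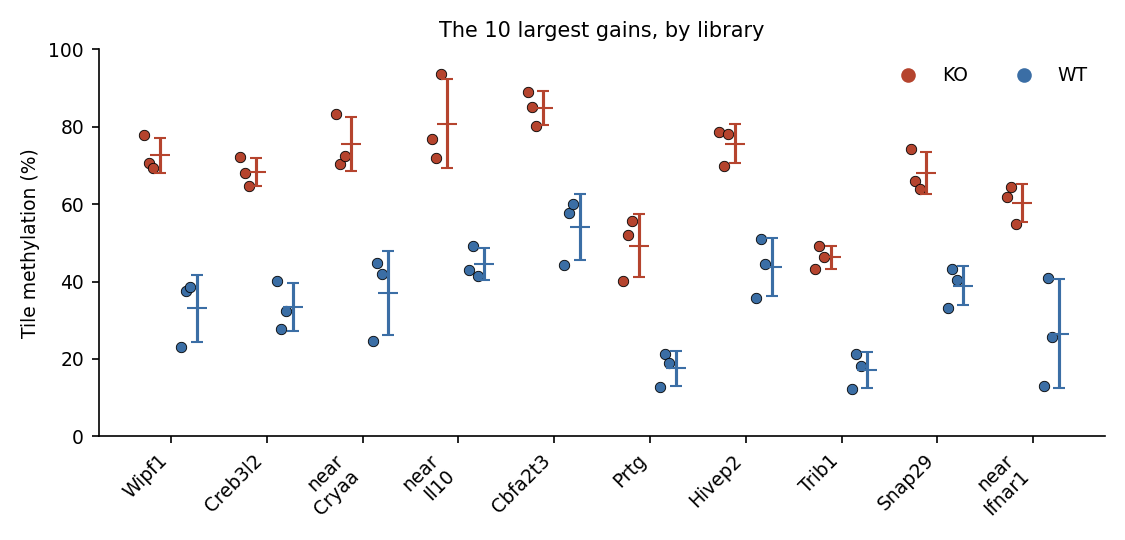
Tile methylation (%) in each library for the 10 largest called gains, KO (red) left of WT (blue), with mean ± SD beside the 3 points of each genotype. In no tile do the genotypes overlap, and the pooled differences fall from 38.3 points at Wipf1 to 28.2 points near Ifnar1.

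When each library was left out in turn, Wipf1, Creb3l2, Cbfa2t3, Trib1 and Snap29 kept their call in all 6 fits. Without WT 3, the tiles near Cryaa, near Il10 and near Ifnar1 and those of Hivep2 and Prtg lost it, with adjusted p up to 0.136. The tiles of Prtg and near Il10 also lost it without WT 1, those near Il10 and near Ifnar1 without KO 1, and those of Prtg and near Ifnar1 without KO 2. Each tile's difference stayed positive in every fit. The smallest adjusted p among members belonged to a tile 27.0 kb from Bach1, which encodes a haem-regulated repressor (chromosome 16, 87671001 to 87672000). Its 14 cytosines stood at 38.3%, 42.1% and 47.5% in KO, against 21.2%, 18.4% and 20.9% in WT (22.6 points, adjusted p = 0.00145).

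No loss was called, and the 5 largest losses with separated genotypes and an unadjusted p under 0.05 are given as values. The tile 76.1 kb from Pdzrn3 averaged 57.0% ± 10.6 in KO and 73.4% ± 0.817 in WT (-16.4 points between means, -18.9 points in pooled reads). The tile 5.73 kb from Deptor, an mTOR inhibitor gene, averaged 45.7% ± 8.33 in KO and 63.4% ± 3.87 in WT (-17.7 points between means, -18.6 points in pooled reads). The tile 16.6 kb from Furin, a proprotein convertase gene, had 4 cytosines at 32.2%, 30.9% and 33.3% in KO, against 46.3%, 45.1% and 55.6% in WT (-17.1 points, adjusted p = 0.201). The tiles near 4930488N24Rik and Minar2 differed by -17.5 and -17.4 points in pooled reads, and the adjusted p of the 5 ran from 0.201 to 0.588. With each cytosine weighted equally the difference was -10.3 points near Deptor and -4.66 points near Minar2. In 4 of them the SD among KO libraries was 7.17 to 10.6 points, and near Furin it was 1.19 points.

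Member tiles of B cell identity genes mostly had a higher mean in KO, without a call. The lists below were chosen with earlier results of these data known, and a tile counts for a list when it overlaps a listed gene with 1 kb on each side. For reading them, 64.7% of all members had a higher mean in KO and their median difference was 1.56 points, against 59.6% and 0.171 points over all tested tiles. Of 21 member tiles in B cell identity genes, 18 were higher in KO with a median of 2.95 points and 0 were called. In Bach2, a repressor that restrains plasma cell fate, the tile stood at 48.0%, 65.6% and 52.7% in KO, against 32.5%, 45.7% and 39.0% in WT (17.4 points, adjusted p = 0.472). The genotypes were separated by a narrow step between KO 1 and WT 2. The start tile of Cd22, an inhibitory co-receptor, was itself a member and averaged 38.5% in KO and 30.01% in WT.

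Of the 4 member tiles in genes of naive B cell quiescence and trafficking, 3 were higher, with a median of 8.09 points. The strongest was in Foxp1, a factor of mature B cell quiescence, at 70.3%, 67.7% and 62.7% in KO, against 37.8%, 51.1% and 52.5% in WT (chromosome 6, 99440001 to 99441000, 17.2 points, adjusted p = 0.0795). The genotypes were separated, and the tile missed the threshold. Of 6 tiles in plasma cell differentiation genes, 4 were higher and 1, Creb3l2, was called. Of 7 in germinal centre genes, 4 were higher and 0 called. Il21r, the receptor of the T cell help cytokine IL-21, averaged 40.7% ± 6.199 in KO and 29.7% ± 6.0003 in WT, with an adjusted p of 0.687 and a pooled difference of 10.2 points, or 4.67 points with equal weights per cytosine. Of 13 tiles in B cell receptor signalling genes, 6 were higher, with a median of -0.312 points and 0 called, and the lowest p among them belonged to the adaptor Dapp1 at 67.3% ± 0.497 in KO and 60.3% ± 6.17 in WT, with an adjusted p of 0.734.

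Actin and movement genes held 12 member tiles, of which 10 were higher with a median of 9.78 points and 2 were called. Beside Wipf1 this was Rasgrp2, which activates the integrin regulator Rap1. Its 10 cytosines stood at 73.3%, 74.9% and 71.3% in KO, against 49.7%, 61.6% and 58.1% in WT (chromosome 19, 6408001 to 6409000, 16.4 points, adjusted p = 0.0194), and the call was lost without KO 1 and without KO 2. All 6 tiles in NF-kB and Toll-like receptor genes and all 6 in cytokine and cytokine receptor genes had a higher mean in KO, with medians of 5.68 and 7.59 points and 0 called. Among them, Irak2, a kinase of Toll-like receptor signalling, had 80.6%, 82.0% and 73.3% in KO, against 51.1%, 75.8% and 51.9% in WT, where WT 2 lay inside the KO range. Il12rb1, an interleukin receptor subunit, averaged 58.9% ± 5.81 over 24 cytosines in KO and 51.6% ± 1.66 in WT (adjusted p = 0.519). Of 7 tiles in lymphoma tumour suppressors and chromatin modifiers, 6 were higher and 1, Cbfa2t3, was called.

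Member tiles also lay in marker genes of other lineages. Of 8 member tiles in T cell genes 7 were higher in KO, among them Cd5, at 57.1%, 52.8% and 51.8% in KO, against 45.9%, 43.2% and 47.3% in WT (8.75 points, adjusted p = 0.458). Both myeloid tiles were higher, and Trib1 was called. Both NK cell tiles, in the transcription factor gene Tbx21, were higher, the one with the smallest p at 34.3% ± 1.04 in KO and 29.03% ± 3.03 in WT. Of 5 erythroid and megakaryocyte tiles 3 were higher, and that of Slc4a1, the red cell anion exchanger, averaged 35.5% ± 3.99 in KO and 48.5% ± 4.80 in WT with the KO libraries below (adjusted p = 0.710). How far cells of these lineages were present was not tested.

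Imprinted genes are a known source of intermediate methylation, and 45 of their 216 tiles (20.8%) were members. Of these 27 were higher in KO, with a median of 1.45 points and 0 called. The Nnat tile, which overlaps Blcap as well, had 25 cytosines at 29.6%, 29.4% and 29.1% in KO, against 37.9%, 34.8% and 36.1% in WT (chromosome 2, 157560001 to 157561000). The KO libraries lay within 1 point of each other and below all WT libraries, by -7.00 points (adjusted p = 0.0804). Of 10 tiles in Hox and homeobox genes 6 were higher. The Hoxd4 tile stood at 40.7%, 40.0% and 43.5% in KO, against 48.3%, 51.6% and 51.4% in WT, separated by -8.91 points in the pooled reads (adjusted p = 0.3001). Read weighting bears on this value, since with each cytosine weighted equally the difference was -2.57 points (adjusted p = 0.873). In DNA methylation machinery genes 0 of 3 tiles were higher, with Uhrf1, a cofactor of DNMT1, at 68.8% ± 4.71 in KO and 68.8% ± 8.62 in WT. The single germline tile, in the meiotic cohesin gene Smc1b, averaged 55.6% ± 10.9 in KO and 55.4% ± 4.67 in WT.

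Several long genes held many member tiles. These counts depend on how many tiles a gene had, and members made up 7.39% of all tested tiles. Gse1 held 13 among 119 tiles, 12 higher in KO with a median of 3.65 points. Wwox held 12 among 92 with 10 higher, and Zbtb7c 12 among 39 with 6 higher. Sdk2 held 11 among 51 with 10 higher, and Igsf21 11 among 51 with 7 higher. Msi2, an RNA-binding protein of blood stem cells, held 10 among 48, of which 8 were higher with a median of 8.96 points. In Mtss1, an actin and membrane scaffold with 29 tiles, all 6 members were higher with a median of 15.002 points. In Ebf1, a founding factor of B cell identity with 20 tiles, all 6 members were higher with a median of 3.41 points. The opposite was seen in Slit1 (26 tiles), with 3 of 9 members higher and a median of -3.38 points. It was also seen in Pax7 (22 tiles), with 2 of 6 higher and a median of -3.90 points. Mtss1, Ebf1, Slit1 and Pax7 were singled out after their values were seen, and none of these tiles was called.

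The higher mean in KO was seen in each of the settings tested, with differences of 1.76 to 2.72 points. Gene interiors held 3669 members (45.7%), which averaged 54.9% ± 0.438 in KO and 52.2% ± 1.21 in WT, 2.72 points apart. Of these 35 (0.954%) were called, where the background over all tested tiles was 0.112%. The 3631 outside protein-coding genes (45.2%) averaged 54.7% ± 0.563 in KO and 52.6% ± 1.07 in WT, 2.16 points apart, with 26 (0.716%) called. Within 1 kb of a gene end lay 736 members (9.16%, against 23.9% of all tiles), 2.05 points apart with 4 (0.543%) called. Tiles of 3 to 5, 6 to 9 and 10 to 29 cytosines differed by 2.57, 2.33 and 1.76 points. Of these 4859, 2256 and 921 tiles, 23 (0.473%), 29 (1.29%) and 13 (1.41%) were called. Those at 30 to under 50% differed by 2.65 points and those at 50 to under 70% by 2.25 points. The 83 members on X averaged 55.5% ± 0.670 in KO and 53.2% ± 0.796 in WT, with 0 called, and the 5 members on Y, for which no test was made, differed by -1.85 points. In each of the 13 settings tested the genotypes were separated, with an exact permutation p and an adjusted p of 0.1. Among autosomes, members made up between 6.48% (chromosome 16) and 8.19% (chromosome 4) of the tiles, and their mean difference ran from 1.53 points on chromosome 18 to 3.603 points on chromosome 10.

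The absence of an unmethylated neighbour has a limit, since 5913 members had no measured neighbour at all. These differed by 2.43 points, the 1915 with 1 measured neighbour by 2.30 and the 208 with both by 2.62. No adjacent member was seen for 7490 tiles, a count that includes the 5913 without a measured neighbour. The rest made up 256 pairs, 10 runs of 3 and 1 run of 4. Of 2331 measured neighbours, 306 (13.1%) lay at 10 to 30%, 610 (26.2%) at 30 to 70% and 1415 (60.7%) at 70% and above. The run of 4, on chromosome 12 from 20231001 to 20235000 and 5.74 kb from Gm32719, averaged 61.9% in KO and 64.7% in WT. A run of 3 across Pcdhga11, a clustered protocadherin, averaged 51.2% in KO and 49.8% in WT. A run of 3 on chromosome 11, 5.33 kb from Hoxb9, stood at 44.8%, 45.9% and 49.97% in KO, against 40.1%, 39.3% and 44.2% in WT, higher in KO in all 3 tiles.

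At the bounds of the rule, the members just inside 30% were tiles of Prox1, Gm7102 and Smoc1 and the tiles just outside were those of Bahcc1, Bean1 and Nr4a2, all within 0.1 points of the bound. At 70% they were Foxn3, Trpa1 and Muc20 inside and Scnn1a, Nudt9 and Cdx1 outside. The Foxn3 tile averaged 77.1% in KO and 62.9% in WT, and that of Scnn1a 63.5% in KO and 76.5% in WT.

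The cytosines inside the tiles covered all levels, and those near 0% or 100% had little room to differ. Of 46916 cytosines, 20092 (42.8%) had a level of 30 to under 70% and averaged 51.8% ± 0.690 in KO and 48.8% ± 1.91 in WT, 3.003 points apart. Those at 10 to under 30% (12.5%) averaged 22.6% ± 0.341 in KO and 19.97% ± 1.18 in WT, and those at 70 to under 90% (18.6%) averaged 81.0% ± 0.515 in KO and 79.0% ± 1.01 in WT. At 90% and above (14.8%) the difference was 0.657 points. In these 4 classes the genotypes were separated, with an exact permutation p of 0.1. The 5283 cytosines below 10% (11.3%) stood at 2.90% ± 0.194 in KO and 3.03% ± 0.557 in WT, with overlapping libraries (exact permutation p = 0.8).

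**Figure D4:**
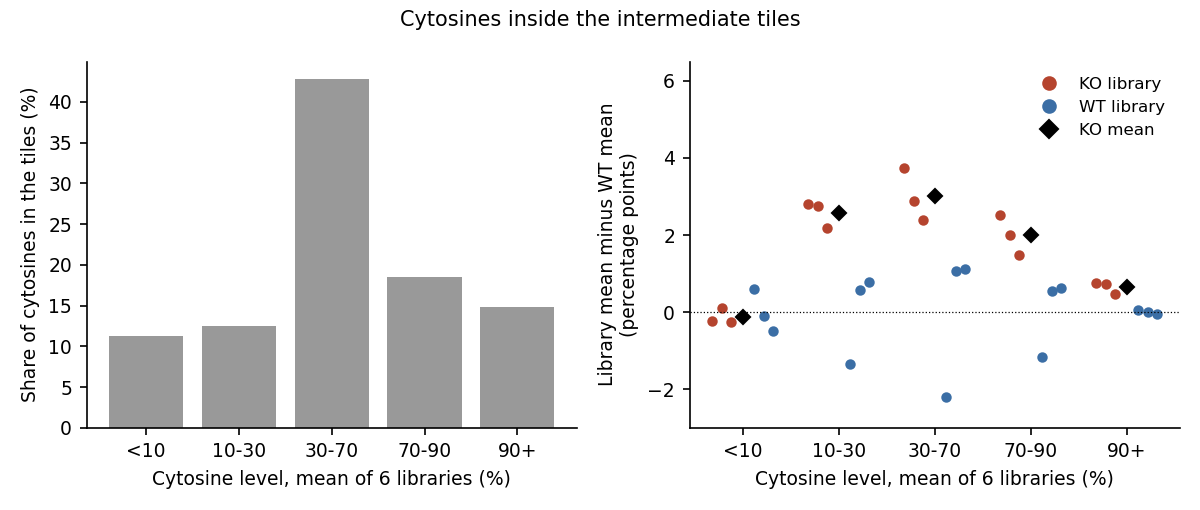
Left, share (%) of the 46916 cytosines of the member tiles by their level over 6 libraries; right, each library's mean minus the WT mean (percentage points) in the same classes, KO in red left of WT in blue, with diamonds for the KO mean. The difference is widest at 30 to under 70%, 3.003 points, and the libraries overlap below 10%.

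Tiles reached an intermediate level in different ways, sorted here after the data were seen. In 650 tiles (8.09%) every cytosine lay at 30 to under 70%. These uniform tiles stood at 52.9%, 52.6% and 52.4% in KO, against 46.2%, 50.4% and 51.1% in WT, 3.42 points apart with 10 called. WT 1 was far below the other WT libraries, and without it the difference was 1.92 points. In 2235 tiles (27.8%) at least 1 cytosine lay below 10% and at least 1 at 90% or above, within a median span of 50 bp. These mixed tiles averaged 56.4% ± 0.478 in KO and 55.5% ± 0.1495 in WT, 0.895 points apart with 2 called. The remaining 5151 tiles differed by 2.93 points with 53 called. Relative to the size of the set, calls were most frequent in uniform tiles and least frequent in mixed tiles. The share called among mixed tiles was close to the background of 0.112% over all tested tiles. The difference in uniform tiles exceeded that in mixed tiles by 2.53 points (exact permutation p over libraries = 0.1), or by 0.944 points without WT 1. With libraries left out this permutation p was up to 0.4. Mixed tiles hold by definition cytosines near 0% and 100%, which have little room to differ. How far the sorting makes their difference smaller was not tested.

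Many mixed tiles held a CpG whose strands differed. Of 9020 CpGs measured on both strands in the members, 3013 (33.4%) differed by over 50 points between strands. The share was 1.92% over all tiles, where most pairs are too near 0% or 100% to differ that much. Among pairs of intermediate mean level the share was 49.3% in the members and 43.0% over all tiles. In RefSeq start windows, 14 of 14 CpGs with strands over 50 points apart in members lay in CCGG, against 81 of 179 (45.3%) of the other pairs. Over all tiles it was 27 of 30 (90%), against 9973 of 44430 (22.4%) of the other pairs, so this is not particular to the members. The 1672 tiles with a discordant CpG (20.8%), of which 1442 were mixed, stood at 55.6%, 56.2% and 54.9% in KO, against 55.7%, 54.9% and 54.9% in WT. The libraries overlapped, with a difference of 0.381 points (exact permutation p = 0.6) and 0 called, where the background over all tested tiles was 0.112%. The 6364 tiles without a discordant CpG averaged 54.4% ± 0.484 in KO and 51.5% ± 1.53 in WT, 2.94 points apart, and held all 65 calls. Their difference exceeded that of tiles with a discordant CpG by 2.56 points (exact permutation p over libraries = 0.1), or by 1.41 points without WT 1. With libraries left out this permutation p was up to 0.3. Most tiles with a discordant CpG were mixed and hold levels near 0% or 100% by definition. How far the sorting makes their difference smaller was not tested.

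**Figure D5:**
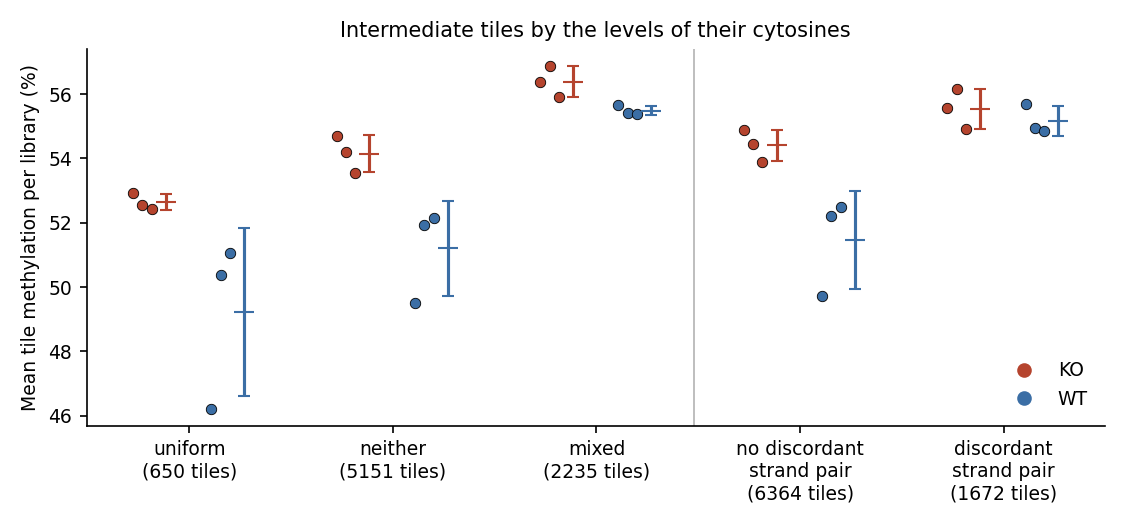
Mean tile methylation (%) per library for member tiles sorted by the levels of their cytosines (left of the line) and by whether they hold a strand-discordant CpG (right), KO in red left of WT in blue with mean ± SD. Uniform tiles are 3.42 points apart and tiles without a discordant CpG 2.94 points, while those with one overlap at 55.5% in KO and 55.2% in WT.

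Some members held still while others varied regardless of genotype. Among members with 10 or more cytosines, the smallest SD over all 6 libraries was seen in Plch2, Pcdhga10 and Cdh22, near Calm2 and in Cep128. Pcdhga10, with 29 cytosines, averaged 45.3% ± 0.392 in KO and 45.3% ± 0.954 in WT. Plch2, a phospholipase, averaged 37.2% ± 0.845 in KO and 35.6% ± 0.409 in WT, and Cdh22, a cadherin, 68.6% ± 1.12 in KO and 69.4% ± 0.949 in WT. The tile 30.1 kb from Calm2 held its 48.9% ± 0.654 in KO and 49.9% ± 0.932 in WT as a mosaic, with several CpGs of opposite strands. At base 87477031 the strands stood at 100% and 0% in KO, and at 96.5% and 6.81% in WT. At base 87477279 they stood at 97.7% and 4.30% in KO, and at 96.3% and 2.02% in WT. At base 87477329 they stood at 1.54% and 96.7% in KO, and at 0% and 94.1% in WT.

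The largest spread within genotypes was seen in Cdh15, Opn4 and Trpm2 and near Ank3 and Usp25. Cdh15, a muscle cadherin, stood at 74.1%, 56.3% and 36.4% in KO, against 54.8%, 57.0% and 46.6% in WT. Opn4, the photopigment melanopsin, stood at 54.9%, 76.2% and 57.8% in KO, against 40.6%, 58.4% and 77.1% in WT. The KO and WT ranges overlapped in both. Trpm2, a calcium channel, averaged 56.4% ± 16.8 in KO and 54.3% ± 12.7 in WT. The tiles near Ank3 and Usp25 had KO SDs of 10.3 and 4.35 points, against WT SDs of 18.8 and 17.1 points, with WT 1 the lowest library in both. Each of these tiles had at least 226 reads in its shallowest library.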

How the data were processed

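ERRBS of 6 libraries was analysed. Reads were aligned with Bismark to GRCm38, per the submitters' processing notes, where no versions are named. Per the file headers, the authors deposited for each CpG cytosine and strand its raw read count, never below 10, and the percent of reads showing C or T. Multiplying the percent by the read count returned whole reads for 100% of values within the rounding, and other bases were left out. Coverage summed over all cytosines was 168455105 to 207065050 per library, where a read counts once for each cytosine it covers. PCR reads are not independent molecules, so precision came from the spread between libraries, of the tile itself and, through moderation, of all tested tiles.

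Tile levels are pooled reads per library. Of the 108943 tiles, 141 without both C and T reads could not be tested. The quasi-binomial model had 1 level per genotype and an F test. Its overdispersion had 4 residual degrees of freedom and was held at 1 or above. It was moderated by limma 3.58.1 in R 4.3.3 towards the value over all tested tiles, with 12.1 prior degrees of freedom. The tile's own spread thus had the smaller weight. Library means were compared by exact two-sided permutation tests (scipy 1.17.1). Same-numbered KO and WT libraries share no stated source, so no pairing was used. The fit was also run on simulated counts with the same spread setting in every tile, so that run does not speak for the calls made here.

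Gene positions and windows came from RefSeq (GRCm38.p6, 21887 protein-coding genes), which gave spans without exons; exonic or intronic position was not analysed here. The 17 gene lists matched 371 of 372 entries. Members and lists were chosen with earlier results of these data known. Named tiles were the 10 largest separated gains, the 5 largest separated losses, the 5 steadiest and 5 most variable with 10 or more cytosines, the 3 longest runs, the tiles at each bound, and per list every called member or that with the smallest p. Other tiles were chosen after their values were seen. Settings varied were the coverage minimum (20), an upper coverage limit, autosomes alone, equal weights per cytosine, shifted tiles, at least 6 cytosines, both neighbours measured, members set by the KO or the WT level, no moderation, no minimum difference, limma on log2((C + 2)/(T + 2)), edgeR 4.0.16 on the counts, a replicate block and each library left out.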

Additional observations from a re-analysis of the deposited data

How the results depend on the processing

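The mean difference of the 8036 tiles, 2.41 points, lay between 2.02 and 2.90 points under the other settings and between 1.77 and 2.77 points when each library was left out. The excess over tiles beside unmethylated DNA ran from 0.633 to 0.834 points, and that over all other tiles from 1.35 to 2.23 points with libraries left out. In all of these the sign was kept. The count of 65 called tiles depended on the setting. It was 43 with equal weights per cytosine (38 of the 65 among them), 35 with at least 6 cytosines a tile, 3 among tiles with both neighbours measured, 80 at a coverage minimum of 20, 56 and 72 with members set by the KO and the WT level, 68 with no minimum difference, and 113 without strand-discordant pairs, a setting chosen after seeing the data. With libraries left out it ran from 27 to 66, with 0 to 2 tiles called lower. It was 27 without WT 1, 28 without KO 2, 42 without WT 3 and 43 without KO 1. It was 0 with no moderation of the overdispersion (571 members higher and 84 lower had an unadjusted p under 0.05, smallest adjusted p 0.903), 0 with limma and 0 with edgeR. With the replicate number as a block it was also 0 (863 members higher and 113 lower had an unadjusted p under 0.05, smallest adjusted p 0.764). Shares over all tiles at an unadjusted p were not computed for these fits. Same-numbered libraries deviated with correlations of 0.0481, -0.0293 and -0.00736, and differently numbered ones with correlations from -0.0391 to 0.0533. The labels state no pairing, and low correlations do not show that libraries share no source. The 11 called tiles named by the rule lost their calls in each of these 4 fits, and 2 of them, near Ifnar1 and in Rasgrp2, also with equal weights (adjusted p = 0.0522 and 0.0692; the libraries left out gave up to 0.136 and 0.119). Foxp1 was called without KO 3 (adjusted p = 0.0473) and without strand-discordant pairs (adjusted p = 0.0336). With equal weights per cytosine the uncalled differences of Hoxd4, Dapp1, Il21r, Deptor and Minar2 shrank by over 1.5 times. The precision of a single tile is limited by 3 libraries per genotype and a median within-genotype SD of 4.75 points, and 1926 members have 3 cytosines.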

Other observations

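A few other called tiles, chosen here after their values were seen, are given as values. At 20.3 kb from Irf8, which encodes an interferon regulatory factor needed in B and myeloid lineages, a tile stood at 44.2%, 45.03% and 42.0% in KO, against 11.003%, 20.2% and 18.6% in WT (26.3 points by the quasi-binomial test, adjusted p = 0.00836). A tile 11.4 kb from Socs5, an inhibitor of cytokine signalling, stood at 64.7%, 56.8% and 65.7% in KO, against 35.9%, 49.8% and 47.8% in WT (17.7 points, adjusted p = 0.0429). A tile 0.533 kb from Rgs16, a brake on G protein signalling, stood at 68.1%, 63.8% and 67.7% in KO, against 53.0%, 50.8% and 51.6% in WT (15.1 points, adjusted p = 0.0392). In all 3 the genotypes did not overlap.

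Inside genes, the tile of Nfic, a nuclear factor I family member, averaged 76.3% ± 6.05 in KO and 53.0% ± 8.21 in WT (SD, n = 3 each), and that of Xrcc1, a scaffold of DNA single-strand break repair, 64.3% ± 5.13 in KO and 42.9% ± 3.30 in WT. In Esr1, the oestrogen receptor gene, 12 cytosines averaged 70.7% ± 4.63 in KO and 51.8% ± 6.35 in WT. The tile of Ildr1 had 24 cytosines and tight libraries, at 41.6%, 41.5% and 39.8% in KO, against 22.9%, 30.3% and 29.7% in WT. Distant tiles were called as well, among them 1 that lay 388.4 kb from Bcl11a, a zinc finger repressor of lymphoid development, at 74.2% ± 3.33 in KO and 46.3% ± 5.23 in WT, and 1 that lay 55.1 kb from Klf4, at 72.6% ± 4.02 in KO and 49.2% ± 6.04 in WT.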
